A study of Mus musculus with 16 samples.

Results

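Of the 16118 genes with deposited values, 6 named genes are described here across atria and ventricles of control mouse embryos and of embryos labelled as deleted for the transcription factors Meis1 and Meis2. They are Ces1d, Ssc5d, Spock2, Slco5a1, Gad1 and Clu. They were selected on measured values of these same libraries, as genes higher in the atria of the deletion embryos and not in their ventricles, and were found in the table by symbol. All 6 were found, and all 6 passed the filter for testing, a mean over all libraries of 1 CPM (reads scaled to library size) or more, which 13950 genes passed. Without the dKO atria, Ces1d and Gad1 would have stayed below that mean. Because that choice used the comparison of deletion with control in both chambers, the values in these comparisons are given as a description with no test.

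Hearts of 8 embryos at E15.5 (embryonic day) gave 16 RNA-seq libraries, 1 atrial and 1 ventricular per embryo, after the outflow tract had been removed. All 8 embryos carried floxed alleles of both Meis1 and Meis2 (Meis1flox/flox; Meis2flox/flox). The 4 double knockout (dKO) embryos also carried an aMHC-driven Cre recombinase transgene (tg/wt), and the 4 controls had no Cre (aMHC +/+), so that deletion and Cre cannot be told apart. Whether the deletion in these embryos was constitutive or inducible is not settled by the series design. The aMHC promoter is active in cardiomyocytes, so fibroblasts, endothelium and other cells of the dissected chambers would keep their alleles. The libraries do not measure recombination by cell type. The 4 groups are control atrium, dKO atrium, control ventricle and dKO ventricle, with 4 libraries each, numbered 1 to 4 in each group. The same number within a genotype marks the same embryo. The protocol names 4 litters, each giving a control and a dKO embryo.

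Meis1 and Meis2 are TALE-class homeodomain factors that bind DNA together with PBX and HOX proteins and act in heart development. The 6 genes have unrelated products. Ssc5d is a secreted protein built of scavenger receptor cysteine-rich domains that binds microbes and extracellular proteins. Spock2 (testican-2) is a secreted proteoglycan of the SPARC family found in extracellular matrix. Clu (clusterin, apolipoprotein J) is a secreted chaperone that holds misfolded proteins and restrains complement. Ces1d is a carboxylesterase of the endoplasmic reticulum that cleaves triacylglycerol and is best known from liver and adipose tissue. Gad1 encodes a glutamate decarboxylase (GAD67) that makes the neurotransmitter GABA. Slco5a1 is a poorly understood member of the organic anion transporter family.

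Recovered read totals ranged from 14.3 to 19.4 megareads in atrial libraries, from 15.6 to 23.0 megareads in control ventricles and from 7.88 to 14.3 megareads in dKO ventricles. A count of 3 reads was worth 0.110 to 0.312 CPM. Meis1 stood at 64.5% of its control mean in dKO atria (two-sided exact permutation test, p = 0.0286, the smallest that 4 against 4 libraries allow) and at 98.5% in dKO ventricles (p = 0.8286). By the same exact test Meis2 stood at 104.6% in dKO atria (p = 0.4571) and at 59.6% in dKO ventricles (p = 0.0286). Transcripts of both genes remained in every dKO library, and a value summed over the whole gene does not separate deleted from intact transcripts or from transcripts of cells without Cre. Nothing in the labels names a separate batch, but the first number of the titles, whose meaning the labels do not state, splits the embryos otherwise than those litters would: 1 dKO alone, 2 control with 2 dKO, and 2 control with 1 dKO.

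**Figure D1:**
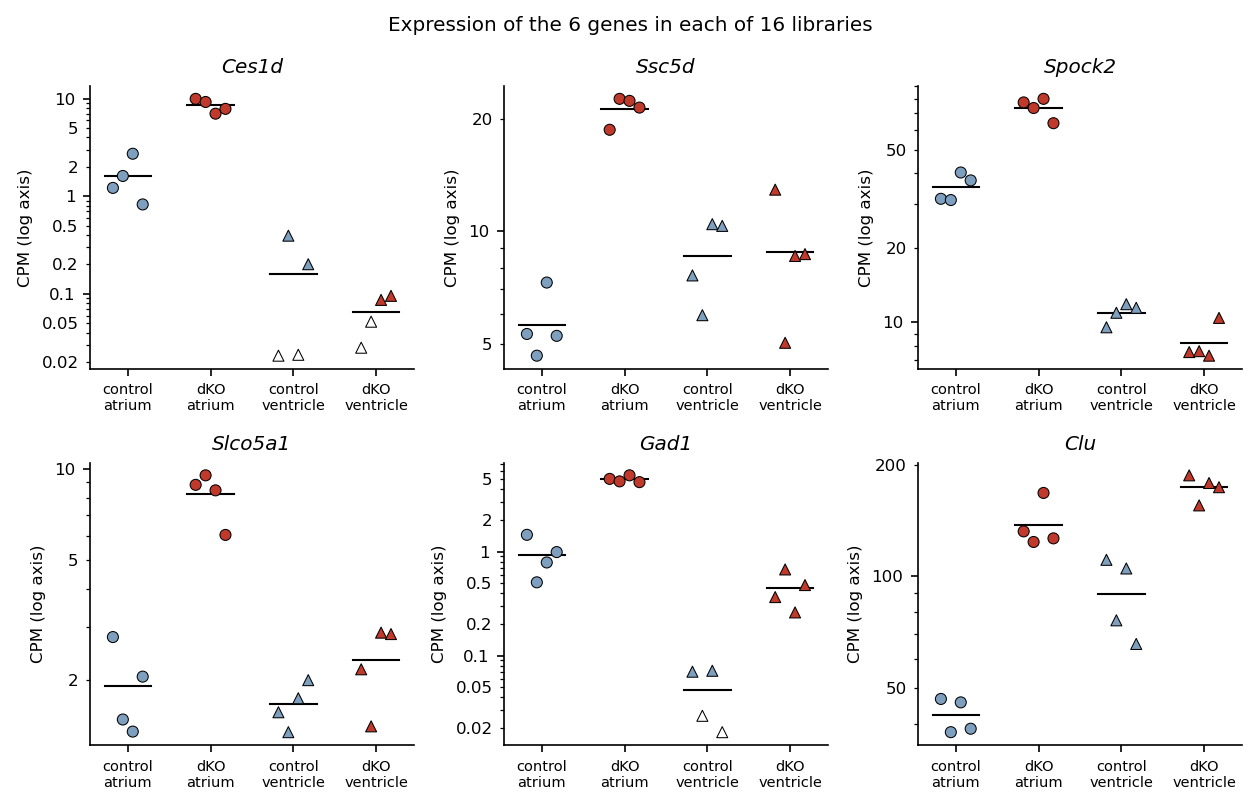
Deposited CPM (log axis) of each gene in the 16 libraries, 4 per group in the order 1 to 4, with a line at each group mean. White symbols are libraries with 0 reads, which the deposited values place at 0.5 read. In all 6 panels each dKO atrium lies above each control atrium, and for Clu and, at a few reads per library, Gad1 each dKO ventricle also lies above each control ventricle.

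The secreted proteins come first. Ssc5d (ENSMUSG00000035279, GRCm38 chromosome 7, 4925785 to 4944826, plus strand) was at 5.32, 4.66, 7.30 and 5.26 CPM in control atria 1 to 4 and at 18.7, 22.6, 22.3 and 21.4 CPM in dKO atria. The groups lay 11.4 CPM apart. The dKO mean was 21.2 ± 1.78 CPM (SD, n = 4) against 5.63 ± 1.15 CPM, a ratio of 3.77. On the log2(CPM + 1) scale the difference was 1.76 ± 0.12 (SE). In ventricles the libraries mixed, at 7.63, 5.97, 10.4 and 10.3 CPM in controls and 12.9, 5.04, 8.59 and 8.69 CPM in dKO. The means of 8.60 ± 2.18 and 8.81 ± 3.22 CPM (SD, n = 4) differed by less than the spread within either group. Each dKO atrium exceeded each ventricle of either genotype, whereas in controls the ventricular mean was the higher.

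Spock2 (ENSMUSG00000058297, GRCm38 chromosome 10, 60106219 to 60135198, plus strand) was at 31.6, 31.2, 40.4 and 37.5 CPM in control atria and at 77.5, 73.6, 80.2 and 63.9 CPM in dKO atria. The groups were separated by 23.5 CPM. Its ratio of 2.10 was the lowest of the 6 genes, with means of 73.8 ± 7.14 and 35.2 ± 4.50 CPM (SD, n = 4) and a log2 difference of 1.05 ± 0.10 (SE). Ventricles went the other way, at 9.54, 10.9, 11.8 and 11.4 CPM in controls and 7.57, 7.64, 7.32 and 10.4 CPM in dKO. Numbers 1 to 3 of the dKO ventricles lay below every control ventricle and number 4 lay among the controls. The ventricular log2 difference was -0.38 ± 0.12 (SE).

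Clu (ENSMUSG00000022037, GRCm38 chromosome 14, 65968483 to 65981547, plus strand) did not keep to the atria. It was at 46.7, 38.0, 45.8 and 38.8 CPM in control atria and at 132.3, 123.9, 168.0 and 126.7 CPM in dKO atria. The means were 137.7 ± 20.5 and 42.3 ± 4.54 CPM (SD, n = 4), a ratio of 3.25 and a log2 difference of 1.67 ± 0.10 (SE). In ventricles it was at 110.9, 76.2, 105.1 and 65.8 CPM in controls and at 187.4, 155.5, 178.7 and 174.1 CPM in dKO. All 4 dKO ventricles lay above all 4 control ventricles, by 44.6 CPM at the closest. The ventricular means were 173.9 ± 13.5 and 89.5 ± 21.9 CPM (SD, n = 4), a ratio of 1.94 and a log2 difference of 0.98 ± 0.14 (SE). By size this difference ranked 33 among 13950 genes in ventricles and the atrial difference ranked 10, so the data go against calling Clu raised in dKO atria only.

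Of the enzymes, Ces1d (ENSMUSG00000056973, GRCm38 chromosome 8, 93166068 to 93197838, minus strand) was at 1.22, 1.61, 2.72 and 0.824 CPM in control atria and at 9.92, 9.21, 7.0 and 7.83 CPM in dKO atria. The dKO libraries held 740 reads of the gene in all and the control libraries 138. The means were 8.49 ± 1.32 and 1.59 ± 0.818 CPM (SD, n = 4), a ratio of 5.33, the highest of the 6, and the log2 difference was 1.91 ± 0.21 (SE). In ventricles Ces1d was close to undetected. Control ventricles held 0, 7, 0 and 5 reads and dKO ventricles 0, 0, 1 and 1 reads. These totals of 12 and 2 reads are too few for a ratio to be read from them.

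Ces1d has close paralogs beside it, and a read of 60 bases can fall where they are identical. Of its 2306 windows of 60 bases in annotated transcripts, 7 (0.304%) also occur in another gene. They form a single coding stretch of 66 bases shared with Ces1b, at chr8:93178067-93178132 (GRCm38, minus strand), printed 5′ to 3′ because reads inside it cannot be told apart:
Ces1d and Ces1b: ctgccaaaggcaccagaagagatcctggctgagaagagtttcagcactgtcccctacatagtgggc
Ssc5d, Slco5a1 and Clu shared no such window with another gene, Gad1 shared 1.0% with its pseudogene Gad1-ps, and Spock2 shared 0.452%. No exon of the 6 genes overlapped an exon of another annotated gene.

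Gad1 (ENSMUSG00000070880, GRCm38 chromosome 2, 70553072 to 70602014, plus strand) was at 1.46, 0.507, 0.788 and 0.993 CPM in control atria and at 5.03, 4.76, 5.44 and 4.68 CPM in dKO atria. The dKO atria were the most alike of any member and group here, with a coefficient of variation of 6.90%. Means were 4.98 ± 0.343 and 0.936 ± 0.399 CPM (SD, n = 4), a ratio of 5.32 and a log2 difference of 1.65 ± 0.17 (SE). In ventricles the reads were few and yet separated by genotype. Control ventricles held 1, 0, 1 and 0 reads, and dKO ventricles 6, 6, 4 and 7 reads from shallower libraries. The totals were 2 and 23 reads. The dKO ventricular mean of 0.445 ± 0.178 CPM (SD, n = 4) was below the lowest control atrium. It was 9.57 times the control ventricular mean of 0.0465 CPM, a ratio that rests on 2 control reads. The ventricular log2 difference of 0.46 ± 0.17 (SE) ranked 237 among 13950 genes. At these few reads the libraries separate in ventricles as well, so the label of atria only is not borne out for Gad1.

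Slco5a1 (ENSMUSG00000025938, GRCm38 chromosome 1, 12866549 to 12992650, minus strand), the transporter, was at 2.77, 1.48, 1.35 and 2.05 CPM in control atria and at 8.83, 9.50, 8.47 and 6.03 CPM in dKO atria. The groups lay 3.26 CPM apart. Means were 8.21 ± 1.51 and 1.91 ± 0.648 CPM (SD, n = 4), a ratio of 4.29 and a log2 difference of 1.67 ± 0.18 (SE). In ventricles it was at 1.56, 1.34, 1.74 and 2.0 CPM in controls and at 2.17, 1.4, 2.87 and 2.83 CPM in dKO. Numbers 1, 3 and 4 of the dKO ventricles lay above every control ventricle and number 2, the shallowest library, lay among them. The ventricular log2 difference was 0.30 ± 0.18 (SE).

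**Figure D2:**
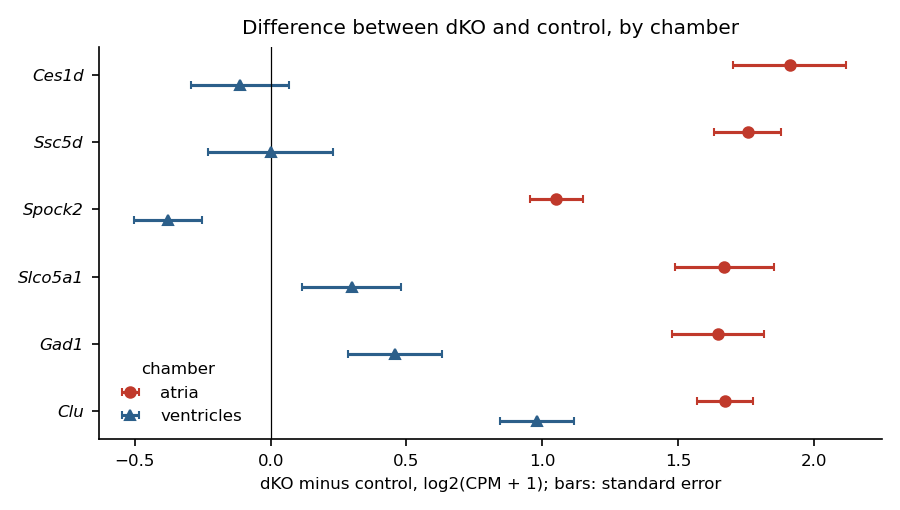
Difference between dKO and control means on the log2(CPM + 1) scale with its standard error, in atria (circles) and ventricles (triangles), for the 6 genes. Atrial differences run from 1.05 to 1.91, and the ventricular differences from -0.38 for Spock2 to 0.98 for Clu. On recovered reads, with no pseudocount of 1, edgeR placed the ventricular differences of Ces1d and Gad1 at -1.82 and 3.78 and DESeq2 at -2.0 and 4.15.

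Side by side, all 6 genes had dKO atria that did not overlap the control atria, where 7.29% of all tested genes did so upward and 6.82% downward, and this separation is what the selection used. In ventricles 2 of the 6, Clu and Gad1, had dKO libraries all above the controls and none had them all below, beside 3.33% and 4.78% of all tested genes. Ranked by the atrial log2 difference among 13950 genes, Ces1d was at 5, Ssc5d at 9, Clu at 10, Slco5a1 at 11, Gad1 at 12 and Spock2 at 57. The selection stated no threshold, and other genes at neighbouring ranks were not among the names. The ventricular effect minus the atrial effect was -2.02 ± 0.27 (log2, SE) for Ces1d, -1.76 ± 0.27 for Ssc5d, -1.43 ± 0.15 for Spock2, -1.37 ± 0.25 for Slco5a1, -1.19 ± 0.22 for Gad1 and -0.69 ± 0.18 for Clu. For Gad1 that sign turned on recovered reads, without the pseudocount of 1: its ventricular and atrial log2 differences were 3.78 and 2.42 with edgeR and 4.15 and 2.42 with DESeq2, on 2 control ventricular reads. Within the title number that holds 2 control and 2 dKO embryos, both dKO atria lay above both controls for all 6 genes, and so did the single dKO atrium of the number that holds 2 controls. This order follows from the separation of the whole groups and is no check on the title number. Within the number of 2 control and 2 dKO embryos the log2 differences ran from 1.26 for Spock2 to 1.97 for Ssc5d.

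Per kilobase of exon, the order of levels was the same in both atrial groups apart from the lowest pair. In dKO atria Clu had 40.1 CPM per kb, Spock2 13.3, Ssc5d 4.63, Ces1d 3.58, Gad1 0.652 and Slco5a1 0.625. In control atria the levels were 12.3, 6.36, 1.23, 0.672, 0.123 and 0.146 CPM per kb in the same order of genes. In both groups Ssc5d and Ces1d overlapped between libraries, as did Gad1 and Slco5a1, while Clu and Spock2 stood clear of the rest. In control ventricles Clu led with 26.0 CPM per kb, and Spock2 (1.98) and Ssc5d (1.87) overlapped.

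The chamber difference in control embryos is a contrast the selection did not use, and it was tested (limma on log2(CPM + 1), embryo as a block, adjusted over 13950 genes). Both control groups did enter the selection, which favours genes low in control atria and high in control ventricles. The calls of Clu and Ssc5d below go in that direction, so they are not independent of the selection. For Ces1d and Gad1, which passed the filter only through the dKO atria, the values are a description with no test. Of the other 4 genes, 1 was called lower in control ventricles than in control atria, 2 were called higher and 1 did not pass. Beside this, 20.5% of all tested genes were called lower and 26.4% higher. That excess of higher calls depended on the processing. It turned with re-centred libraries (3186 higher, 3265 lower), edgeR (3069 and 3203) and DESeq2 (2817 and 2883). Spock2 fell from 35.2 to 10.9 CPM (log2 difference -1.59 ± 0.10 SE, adjusted p = 5.862e-10, ventricle lower in 16 of 16 pairs of libraries). Ces1d was at 1.59 CPM in control atria and 0.161 CPM in control ventricles (-1.12 ± 0.19 SE), and Gad1 at 0.936 and 0.0465 CPM (-0.87 ± 0.16 SE), with each control ventricle below each control atrium for both. Clu rose the other way, from 42.3 to 89.5 CPM (1.04 ± 0.12 SE, adjusted p = 1.858e-06), and each control ventricle exceeded each control atrium. Ssc5d was higher in ventricles by 0.52 ± 0.19 (SE, adjusted p = 0.03403, in 15 of 16 pairs), a call that ended without control embryo 1 (adjusted p = 0.0787), 3 (0.0607) or 4 (0.1797). Slco5a1 was at 1.66 CPM in ventricles and 1.91 CPM in atria (-0.11 ± 0.18 SE, adjusted p = 0.647).

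In dKO hearts the chamber order of Ssc5d and Slco5a1 differed from that in controls. All dKO atria lay above all dKO ventricles for Ssc5d (21.2 against 8.81 CPM) and for Slco5a1 (8.21 against 2.32 CPM), whereas the control chambers overlapped for both. Spock2 went from a control atrium to ventricle ratio of 3.22 to a dKO ratio of 8.96. For Clu the dKO atria reached the dKO ventricles, with 137.7 and 173.9 CPM and overlapping libraries. These comparisons follow from the selection and carry no test.

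The genes next to the 6 on the chromosome had no part in the selection. The 3 nearest listed genes on each side within 500 kb gave 30 neighbours, of which 21 were tested. In atria 6 of the 21 were called higher in dKO and 0 lower at an adjusted p under 0.05 (limma), beside 4.04% of all tested genes called higher and 3.43% called lower. In ventricles limma, edgeR and DESeq2 called 0 of the 21 in either direction, beside 0.989% higher and 1.01% lower over all genes in limma, and 1 of the 21 was higher and 0 lower at an unadjusted p under 0.05 in limma. In atria 1 of the 21 was lower at an unadjusted p under 0.05 in limma and 0 were called lower by edgeR or DESeq2. Over all tested genes in atria 10.8% were higher and 9.52% lower at an unadjusted p under 0.05 in limma, edgeR called 3.92% higher and 3.47% lower, and DESeq2 called 5.88% higher and 5.2% lower. In ventricles these shares were 5.15% and 7.61% unadjusted in limma, 1.04% and 0.817% in edgeR, and 1.78% and 1.58% in DESeq2. The median atrial log2 difference of the 21 was 0.19, and that of all tested genes was -0.00462. The count depended on single libraries. It was 1 without dKO atrium 2 and 2 without dKO atrium 3, settings that also lowered the calls over all genes from 1042 to 743 and 708.

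Of these 6 genes, 4 lie around Ssc5d, which had 6 tested neighbours. Sbk2, a kinase gene of the SH3-binding family, overlaps the Ssc5d locus on the opposite strand with 0 shared exon bases. It was at 21.3, 23.2, 20.5 and 23.7 CPM in control atria and at 42.3, 43.4, 40.6 and 42.4 CPM in dKO atria. Each dKO atrium was far above each control, with a log2 difference of 0.90 ± 0.07 (SE, limma, adjusted p = 1.36e-05), and the call held in all 17 alternatives. Its paralog Sbk3, 20.4 kb from Ssc5d, had means of 20.9 ± 3.96 and 12.4 ± 2.58 CPM (SD, n = 4; log2 0.71 ± 0.16 SE, adjusted p = 0.0194, limma). Both were far lower in control ventricles, at 1.22 and 0.497 CPM. Zfp579, a zinc finger gene 38.7 kb away, had 72.8 ± 10.6 against 49.6 ± 5.94 CPM (SD, n = 4; 0.54 ± 0.12 SE, limma, adjusted p = 0.01562). Nat14, a predicted acetyltransferase 0.779 kb on the other side, had 5.62 ± 0.847 against 3.39 ± 0.521 CPM (SD, n = 4; 0.59 ± 0.14 SE, limma, adjusted p = 0.02508). The 4 genes had non-overlapping atrial groups, while Zfp628 (0.05 ± 0.10 SE, adjusted p = 0.8239 in limma), 3.78 kb away, and Isoc2a (-0.13 ± 0.12 SE, adjusted p = 0.6437 in limma) were not called. Sbk3 and Zfp579 lost their calls without dKO atrium 2 or 3, and Nat14 lost its call without any of control atria 1 and 3 and dKO atria 2 and 3. How the authors' counting used strand is not given in the sources used here.

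The other called neighbours were Mmp2 and Sulf1. Mmp2, a matrix gelatinase 312.6 kb from Ces1d, had 134.9 ± 23.6 against 97.8 ± 8.54 CPM in atria (SD, n = 4; log2 0.45 ± 0.11 SE, limma, adjusted p = 0.02925) and lost the call without any of control atria 1, 2 and 4 and dKO atrium 2. Sulf1, an enzyme that trims heparan sulfate, lies 5.36 kb from Slco5a1 and had 246.0 ± 23.2 against 193.8 ± 17.7 CPM (SD, n = 4; 0.34 ± 0.08 SE, limma, adjusted p = 0.02826). Its call ended without any of dKO atria 1, 2 and 3 or control atria 2, 3 and 4. Ncoa2 on the other side of Slco5a1 was not called (-0.02 ± 0.10 SE, adjusted p = 0.93 in limma). Scara3, a scavenger receptor gene 14.5 kb from Clu, had non-overlapping atrial groups (11.7 ± 3.20 against 6.92 ± 1.65 CPM; SD, n = 4) and missed the threshold (0.68 ± 0.20 SE, limma, adjusted p = 0.06228), which it passed without dKO atrium 1 (0.03518). Beside Spock2, Ascc1 (0.16 ± 0.09 SE, adjusted p = 0.3257) and Chst3 (0.28 ± 0.20 SE, adjusted p = 0.4764) were not called by limma. The nearest listed neighbours of Ces1d (Slc6a2 and Gm45909), of Gad1 (Erich2 and Gm16510) and Gm10233 after Clu were too low to be tested.

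**Figure D3:**
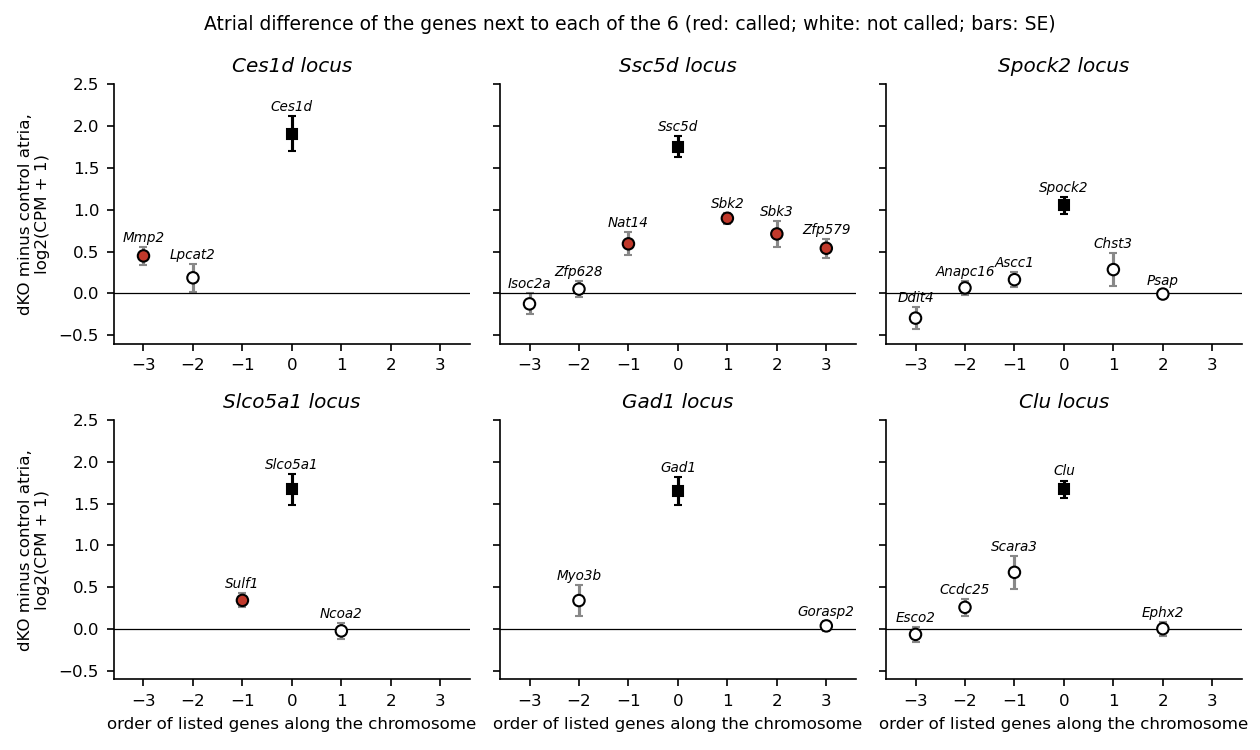
Atrial log2(CPM + 1) difference with its standard error for each of the 6 genes (squares at 0) and its tested neighbours, by order along the chromosome. Red circles passed an adjusted p under 0.05 and white circles did not; 4 of the 6 red circles lie at the Ssc5d locus.

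Promoter windows from RefSeq (GRCm38.p6) matched 2 of the 6 genes, Spock2 and Gad1, and are shown up to the first base in the window that GENCODE places in an exon because these are the members with a window to search for the Meis motif:
Spock2, chr10:60106007-60106218, plus strand: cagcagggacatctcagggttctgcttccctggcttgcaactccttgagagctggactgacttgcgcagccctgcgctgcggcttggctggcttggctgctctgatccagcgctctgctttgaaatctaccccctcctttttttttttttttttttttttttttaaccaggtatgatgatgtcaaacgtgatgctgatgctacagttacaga
Gad1, chr2:70561879-70562041, plus strand: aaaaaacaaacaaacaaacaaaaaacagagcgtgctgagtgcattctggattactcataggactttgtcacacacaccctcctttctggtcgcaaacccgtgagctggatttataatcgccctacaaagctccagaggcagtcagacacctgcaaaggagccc
The Gad1 window starts inside the annotated gene, downstream of its first annotated start. Both are printed 5′ to 3′ with no capitals, since neither 250-base window held TGACAG, the MEIS core motif, or TGATTGAC, the joint PBX and MEIS motif, on either strand. Of all 32851 promoter windows of that length, 15.9% held the first and 0.691% the second. No match says only that these letters are absent from these windows.

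The wider families of the 6 genes were read from lists chosen with earlier results of these data known. Over 100 distinct tested genes, with the 6 left out, limma called 12 higher and 3 lower in dKO atria, beside 4.04% and 3.43% of all tested genes. Of the 100, 5 are also in a cell type marker list, and 2 of these, C1qb and Smoc2, were called. Mmp2 is also among the called neighbours, so these counts are not separate. The total of 15 calls was 9 without dKO atrium 3, 8 without control atrium 4 and 23 without dKO atrium 4, where the calls over all genes were 708, 695 and 1201.

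In the family of Ssc5d, scavenger receptors and proteins with scavenger receptor cysteine-rich domains, 3 of 17 tested genes rose in dKO atria, 0 fell, and the median log2 difference was 0.24. Scarb1, the lipoprotein receptor, had 77.7 ± 1.47 against 66.4 ± 2.11 CPM (SD, n = 4; log2 0.22 ± 0.05 SE, limma, adjusted p = 0.01653). Loxl2, a collagen cross-linking enzyme with these domains, had 214.7 ± 29.3 against 156.4 ± 19.4 CPM (0.45 ± 0.11 SE, adjusted p = 0.02944, limma). Msr1, a macrophage receptor, had 3.16 ± 0.312 against 1.79 ± 0.480 CPM (0.59 ± 0.16 SE, adjusted p = 0.04614, limma). Scarb1 lost its call without control atrium 1 or dKO atrium 3, Loxl2 without any of dKO atria 2 and 3 and control atria 3 and 4, and Msr1 without any library other than control atrium 3. At an unadjusted p under 0.05 in limma, 10 of the 17 were higher and 0 lower, beside 10.8% and 9.52% of all tested genes. DESeq2 called 7 higher and edgeR 2, beside 5.88% and 3.92% of all tested genes, and neither called any lower. In ventricles all 3 tools called 0 of the 17 (limma, unadjusted p under 0.05: 0 higher and 1 lower), and the median was -0.04.

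Among testicans, SPARC relatives and the proteases they meet, 4 of 15 rose, 0 fell and the median was 0.23. Sparc, the founding matrix protein of the family, had 1767 ± 153.6 against 1340 ± 45.1 CPM (SD, n = 4; 0.40 ± 0.08 SE, limma, adjusted p = 0.01169). Smoc2, a matrix-associated relative, had 87.8 ± 11.3 against 61.0 ± 8.94 CPM (0.52 ± 0.11 SE, limma, adjusted p = 0.01484) and lost the call without control atrium 4. The protease cathepsin L (Ctsl) had 370.1 ± 12.1 against 291.5 ± 16.9 CPM (0.34 ± 0.06 SE, limma, adjusted p = 0.003731), and Mmp2 is given above. Spock3, the other tested testican, had 2.09 ± 0.779 against 1.61 ± 1.19 CPM and was not called (0.32 ± 0.30 SE, adjusted p = 0.6162 in limma). At an unadjusted p under 0.05 in limma, 8 of the 15 were higher and 0 lower, beside 10.8% and 9.52% of all tested genes. DESeq2 called 6 higher and edgeR 4, beside 5.88% and 3.92% of all tested genes, and neither called any lower. In ventricles limma and edgeR called 0 of the 15 and DESeq2 called 2 higher, beside 1.78% of all tested genes. There 2 were higher and 2 lower at an unadjusted p under 0.05 in limma, beside 5.15% and 7.61%, and the median was 0.07.

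Among extracellular chaperones, complement genes and clusterin receptors, 3 of 28 rose, 0 fell and the median was 0.26. These were Apoe, a lipid carrier (408.8 ± 16.5 against 323.5 ± 23.0 CPM; 0.34 ± 0.06 SE, limma, adjusted p = 0.007441), Serping1, the C1 inhibitor (32.5 ± 1.09 against 24.7 ± 2.14 CPM; 0.39 ± 0.07 SE, adjusted p = 0.008348), and C1qb, a chain of complement C1q (20.0 ± 3.73 against 12.4 ± 1.15 CPM; 0.63 ± 0.13 SE, adjusted p = 0.01478). C1qb lost its call without any of dKO atria 2 and 3 and control atrium 4. In ventricles, where Clu also stood higher in dKO, 0 of the 28 rose and 1 fell in all 3 tools, with a median of 0.05. At an unadjusted p under 0.05 in limma, 10 of the 28 were higher and 1 lower in atria, beside 10.8% and 9.52% of all tested genes. In ventricles 4 were higher and 1 lower, beside 5.15% and 7.61%. In atria DESeq2 called 5 higher and edgeR 3, beside 5.88% and 3.92% of all tested genes, and neither called any lower.

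Among carboxylesterases and genes of neutral lipid hydrolysis, 0 of 18 rose and 2 fell in dKO atria, with a median of -0.00223, and edgeR and DESeq2 gave the same counts. At an unadjusted p under 0.05 in limma 1 of the 18 was higher and 3 lower, beside 10.8% and 9.52% of all tested genes. Mgll, the monoacylglycerol lipase, had 11.6 ± 0.50 against 20.2 ± 3.04 CPM (-0.74 ± 0.11 SE, limma, adjusted p = 0.001663). Nceh1, a cholesterol ester hydrolase, had 17.8 ± 2.35 against 25.0 ± 4.25 CPM (-0.46 ± 0.13 SE, limma, adjusted p = 0.04909), and its call ended without any library other than dKO atrium 1 or control atrium 3. In ventricles 0 of the 18 rose, with 0 also at an unadjusted p under 0.05, and 2 fell in all 3 tools, with a median of -0.06. Among genes of GABA synthesis, breakdown, transport and reception, 2 of 19 rose, 1 fell and the median was 0.07. The GABA-A receptor subunits Gabre (11.0 ± 1.68 against 5.23 ± 1.05 CPM; 0.95 ± 0.15 SE, limma, adjusted p = 0.002192) and Gabrb2 (3.61 ± 1.26 against 1.45 ± 0.401 CPM; 0.88 ± 0.22 SE, adjusted p = 0.03355) rose. Gabrb2 lost its call without any library other than dKO atrium 4. Glul, which makes glutamine from glutamate, fell (57.3 ± 1.53 against 73.8 ± 1.56 CPM; -0.36 ± 0.05 SE, limma, adjusted p = 0.0009792). In ventricles all 3 tools called 0 of the 19 (limma, unadjusted p under 0.05: 1 higher and 4 lower), with a median of -0.02. Of 3 tested Slco genes 0 were called in atria by any of the 3 tools (limma, unadjusted p under 0.05: 1 higher and 0 lower), and Slco2a1 and Slco3a1 had differences of 0.02 ± 0.11 and -0.14 ± 0.11 (SE). Slco3a1 fell in dKO ventricles from 17.3 ± 1.03 to 10.9 ± 0.444 CPM (SD, n = 4; -0.61 ± 0.08 SE, limma, adjusted p = 0.002111).

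**Figure D4:**
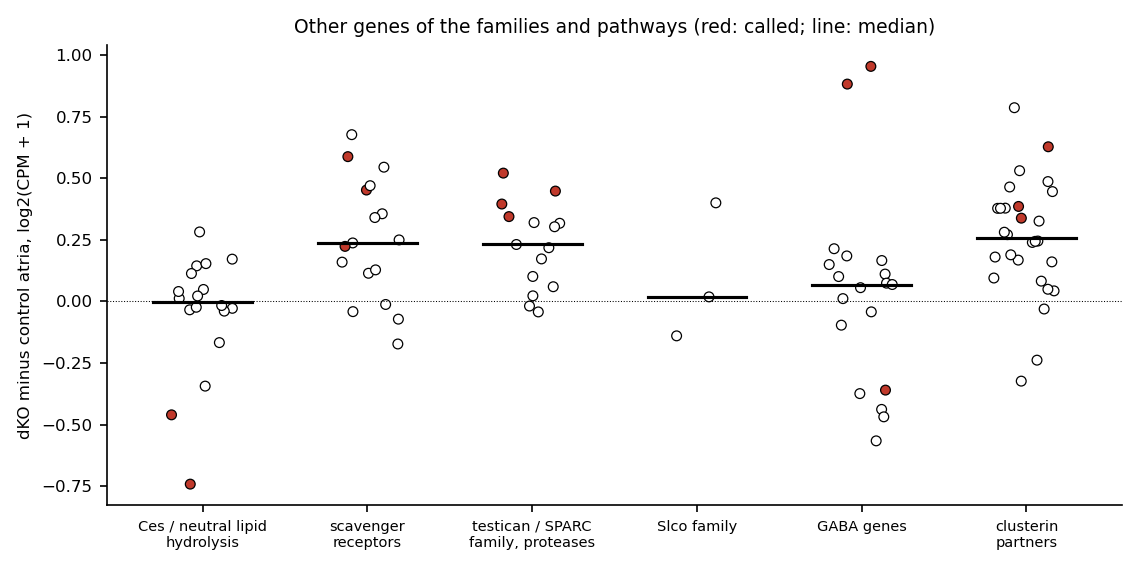
Atrial log2(CPM + 1) difference of each tested gene in the 6 family or pathway lists, with the 6 genes themselves left out and a line at each median. Red points passed an adjusted p under 0.05; the medians lie between -0.00223 and 0.26.

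Over the 16 libraries, the 6 genes did not share a single profile (Pearson r of log2(CPM + 1), a description over libraries that share the 4 groups). Ces1d and Spock2 were the most alike at 0.95, then Ces1d and Gad1 at 0.93 and Slco5a1 and Gad1 at 0.91. The selection on high dKO atria favours such likeness. By likeness to Ces1d, Spock2 ranked 24 and Gad1 47 among the named genes tested, and by likeness to Slco5a1, Gad1 ranked 10. Clu was the least like the others, at -0.23 with Spock2, 0.01 with Ces1d and 0.57 with Ssc5d. The listed gene most like Gad1 was Csrp2, a LIM-domain protein gene (r = 0.984), whose mean was 657.4 CPM in dKO atria and 230.2 CPM in control atria, followed by Serpine2 (0.971) and Rbpms (0.970). For Ces1d these were Vstm4 (0.967), Dusp14 (0.966) and Csrp2 (0.966), and for Spock2 they were Dner (0.985), Reck (0.980) and Rarres2 (0.978). For Slco5a1 they were Rbpms (0.945), Sfrp1 (0.942) and Dtnb (0.934), for Ssc5d Rgma (0.920), Dbn1 (0.883) and Slc39a6 (0.880), and for Clu Pak6 (0.928), Sdc2 (0.924) and Fam184a (0.918).

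Cell type markers moved in the same atria. In bulk tissue more cells of a type and more RNA per cell cannot be told apart. Atrial myocyte markers had like mean log2 levels in both groups (7.73 to 7.97 in control and 7.80 to 7.94 in dKO atria, mean log2(CPM + 1)), and 3 of 16 were called higher and 3 lower. Their summed level was 11440 to 13580 CPM in control and 14250 to 15730 CPM in dKO atria, with Nppa at means of 3827 and 5920 CPM. Ventricular myocyte markers were at 5.0 to 5.48 in control atria and 4.44 to 4.85 in dKO atria, with 6 of 13 lower and 0 higher, and their summed level was 1470 to 2915 and 845 to 1710 CPM. Epicardial and mesothelial markers were at 4.96 to 5.17 against 5.21 to 5.44 (2 of 11 higher, 0 lower; summed 438 to 498 and 523 to 610 CPM). Endothelial markers were at 6.41 to 6.46 against 6.48 to 6.58 (0 of 10 higher, 1 lower; summed 1111 to 1135 and 1038 to 1308 CPM).

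Fibroblast markers were at 6.71 to 6.93 in control and 6.79 to 7.49 in dKO atria (3 of 12 higher, 0 lower; summed 5581 to 7439 and 6497 to 10700 CPM). Macrophage markers were at 3.24 to 3.42 and 3.22 to 3.82 (1 of 11 higher, 0 lower; summed 120 to 140 and 117 to 190 CPM), and smooth muscle and pericyte markers at 5.41 to 5.55 and 5.50 to 5.96 (4 of 10 higher, 1 lower; summed 884 to 1011 and 1128 to 1548 CPM). In dKO atrium 1 the mean log2 levels of these 3 lists were within or below the control range, at 6.79, 3.22 and 5.50. That library comes from the dKO embryo that stands alone under its title number, so embryo and title number cannot be told apart there. The mean levels of epicardial, endothelial and ventricular markers differed in all 4 dKO atria from all 4 controls. So did the summed levels of smooth muscle, epicardial and atrial myocyte markers, higher in dKO, and of glial markers, lower in dKO. The part of any of these lists in the values of the 6 genes was not tested. Adipocyte, hepatocyte, neuron and glial markers, lists that bear on Ces1d and Gad1, had group means of 0.71 to 2.28 in atria. Of the tested ones, limma called 1 of 2 adipocyte, 0 of 2 hepatocyte, 1 of 8 neuron and 0 of 4 glial markers higher and 1 glial marker lower. Summed adipocyte markers were at 18.2 to 22.7 CPM in control and 22.5 to 41.1 CPM in dKO atria. Fabp4, also expressed in endothelium, gave most of that sum (20.0 and 31.4 CPM), Pparg had 183 reads over the 8 atrial libraries, and Adipoq, Cidec and Retn had 5, 0 and 0. Summed hepatocyte markers, of which 4 of 9 were listed, were at 17.1 to 32.3 CPM in control and 29.7 to 52.2 CPM in dKO atria, mostly Trf (21.0 and 31.8 CPM). Summed neuron markers were at 72.5 to 180.8 and 80.7 to 170.5 CPM, with Uchl1 at 59.4 and 82.4 CPM and Stmn2 at 12.2 and 8.20 CPM in control and dKO atria. Summed glial markers were at 40.8 to 50.1 and 29.5 to 37.6 CPM. Of the lung and thymus epithelium list, only Cdh1 was listed. It was at 1.82, 0.151, 3.46 and 0.301 (log2(CPM + 1)) in control atria 1 to 4 and at 0.591 to 1.57 in dKO atria. Control atrium 3 also had the highest mean of neuron markers (3.30). Among control atria it had the highest Ces1d, Ssc5d and Spock2 and the lowest Slco5a1. The part of these lists was not tested either.

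**Figure D5:**
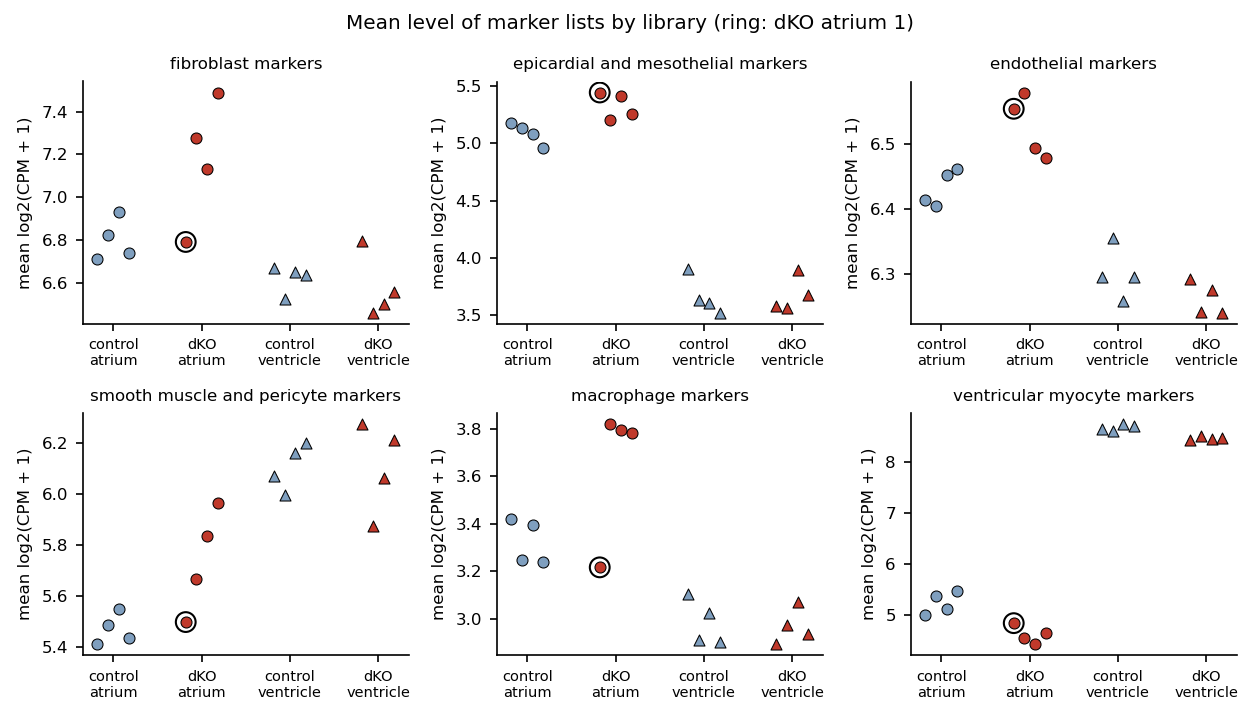
Mean log2(CPM + 1) of 6 marker lists in each library, 4 per group, with dKO atrium 1 ringed. The ringed library lies at 6.79 for fibroblast and 3.22 for macrophage markers, where the other dKO atria are above every control atrium.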

How the data were processed

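RNA of 16 libraries was deposited by the authors as CPM of 16118 genes. The submitters' processing notes list cutadapt, RSEM 1.3.1 and GRCm38. Not given in the sources used here: normalization, gene filter, annotation, strandedness. Each deposited CPM equalled a whole read number plus 0.5 times a library's step (100% within 0.001 read), so reads were recovered for depths and count tests, and a gene with 0 reads is listed above 0. Libraries were compared with limma 3.58.1 (R 4.3.3, trended moderated test, two-sided) on log2(CPM + 1), a scale that understates changes of low genes, over the 13950 genes whose mean reached 1 CPM. Benjamini-Hochberg adjustment ran over all of them and a call is an adjusted p under 0.05. An embryo's chambers were blocked (consensus correlation 0.108) where both entered, since they come from 1 animal. Replicate numbers follow the accession order and pair no embryos across genotypes. The scripts were tested on simulated data.

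The members and lists were chosen with earlier results of these data known. Named genes were all 6 members, up to 4 called genes per family list by smallest adjusted p (where none, the 2 highest), each called or nearest neighbour and the 3 most alike genes per member. Spock3, Zfp628, Isoc2a, Scara3 by its adjusted p without a library, and Csrp2's level were given after their values were seen. Alternatives were pseudocounts of 0.5 and 5, no filter or a mean of 5 CPM, re-centred libraries, edgeR 4.0.16 and DESeq2 1.42.0 on recovered reads, the title number as a covariate or a single title number, no block, and each library or embryo left out. Coordinates and exons came from GENCODE M21 (GRCm38), which held 16096 of the listed IDs.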

Additional observations from a re-analysis of the deposited data

Results flagged for a closer look

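Spock2 in dKO ventricles had its highest library, number 4, at 10.4 CPM, apart from the other 3 by 0.898 of the group's range and so beyond Dixon's 95% limit for 4 samples. Chance gives such a gap in about 1 group in 20, and 24 groups were checked. The dKO effect differed between ventricles and atria, by the test of the difference itself (limma over all 16 libraries, adjusted over all genes), for 4 named genes that are not among the 6. The ventricular minus atrial difference was -0.56 for Loxl2 (adjusted p = 0.0237), -0.97 for Msr1 (adjusted p = 0.01797), -0.83 for Sbk3 (adjusted p = 0.04605) and 0.84 for Mgll (adjusted p = 0.001132). Sbk3 was at 0.497 and 0.366 CPM in control and dKO ventricles, where the log2(CPM + 1) scale can show little change. No explanation of these differences was tested.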

How the results depend on the processing

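All 6 members kept the direction of their atrial difference in every alternative run. The selection used this direction and each dKO atrium lay above each control atrium, so the runs are no check of it. The size of the difference followed the scale for genes with few reads. Ces1d, Slco5a1 and Gad1 had atrial log2 differences of 1.04, 0.93 and 0.75 with a pseudocount of 5, 2.44, 2.10 and 2.42 with edgeR and 2.44, 2.10 and 2.42 with DESeq2, by construction of the pseudocount, and Gad1 had 1.97 with a pseudocount of 0.5. In ventricles Ces1d moved from -0.11 to -1.82 with edgeR and -2.0 with DESeq2, and Gad1 from 0.46 to 3.78 and 4.15. Ssc5d had 1.31 with a pseudocount of 5, and within the title number of 2 control and 2 dKO embryos Ssc5d had 1.97 and Spock2 1.26. Ces1d, Slco5a1 and Gad1 have no value where a mean of 5 CPM was required. Genes called in ventricles numbered 279, against 469 with DESeq2 and 79 within that title number, which has fewer samples. Genes whose dKO effect differed between chambers numbered 368, and 238 to 470 with 1 embryo left out (238 without dKO embryo 3, 241 without control embryo 4); with no replicate block they numbered 294, and the block, which rests on chambers of the same embryo, ended no call of a member between control chambers. Called neighbours numbered 1 to 7 and called family genes 8 to 23 with 1 library left out, and 23 family genes were called by DESeq2, which also called 1546 genes in atria over all genes against 1042 in limma. The sign of an uncalled difference turned for Slco5a1 between control chambers (-0.22 to 0.038 with 1 embryo left out, positive without control embryo 1), for Ncoa2 in atria (-0.086 to 0.072 with 1 library left out) and for Slco2a1 in atria (-0.11 with the title number as a covariate, -0.0667 within the title number, and -0.097 to 0.087 with 1 library left out); the cause was not tested. Msr1 lost its atrial call with edgeR (adjusted p = 0.07125), the covariate (0.05041) and the single title number (0.1356), where Nat14, Scarb1, Serping1 and Smoc2 also lost theirs. Without the filter Loxl2, Mmp2 and Nceh1 lost theirs, and Nceh1 also with a pseudocount of 5. Re-centring the libraries moved the median of all genes by 4e-04 in atria and -0.01 in ventricles. Depth limits Ces1d and Gad1 in ventricles, where whole groups held 2 to 23 reads.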
